A study of Harpegnathos saltator with 36 samples.

Results

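Transfer RNA rows of the count table are described here locus by locus. A locus was taken when its row carried a transfer RNA identifier and its reads, summed over all 18 brains, came to at least 20. This left 44 of 542 transfer RNA rows, in a table of 19198 rows. The loci were thus chosen by their summed count, and the sums are given as a description. At the threshold, Hsal_tRNA202 and Hsal_tRNA307 had 20 reads, and just outside it Hsal_tRNA150 had 19 and Hsal_tRNA125 had 18.

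The brains came from Harpegnathos saltator, an ant whose workers duel when the queen is lost, and the optic lobes were removed. All animals had been dueling for 3 days and were on day 6 of the transition. They were regrouped in nests of 6, in which 3 ants received siRNA against the corazonin receptor (CrzR siRNA) and 3 received siRNA against GFP, a jellyfish gene that the ant lacks. Every ant was injected in the head with 0.5 µl of a 5 µM solution of Dicer-substrate siRNA complexed with in vivo-jetPEI, and brains were taken 1 day later. There were 9 brains per siRNA, each a separate strand-specific library of polyadenylated RNA sequenced in 2 runs that the deposited counts add together. The design addresses which brain RNAs differ after knockdown of the receptor. The genotype, strain and age of the ants are not stated in the labels, and the extent of the knockdown was not analysed here.

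Transfer RNAs carry amino acids to the ribosome and read the codons of messenger RNA through their anticodons. They are transcribed by RNA polymerase III, trimmed at both ends, given a CCA tail, heavily modified and tightly folded, and they carry no poly(A) tail. Poly(A)-selected libraries therefore hold them only as a residue, and the level of a row in such a library is not the level of the transfer RNA in the cell. Transfer RNA genes commonly occur in several identical or nearly identical copies. How reads that match several copies were counted is not given in the sources used here, so the division of reads among loci is uncertain. Amino acid identity, anticodon, sequence and genome position of the loci were not analysed here.

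Transfer RNA rows held 7901 of 306395450 counts, or 0.00258%. The 44 loci held 7063 of these reads (89.4%), the 205 rows with between 1 and 19 reads held the other 838 (10.6%), and 293 rows had none. A total of 9741263 to 24166021 counts per brain made 1 read worth between 0.103 and 0.0414 CPM (a count scaled by all counts of the brain). A floor of 3 reads corresponded to 0.308 CPM in the shallowest brain and 0.124 CPM in the deepest. Intervals and floors cover counting error only. Per brain, 130 to 1113 transfer RNA reads were counted, with a median of 373.5. The loci were short, from 68 to 123 bases with a median of 71, and 21 of them were exactly 71 bases long.

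The reads were concentrated on a few loci. Hsal_tRNA195 alone held 3084 reads, 39.0% of all transfer RNA reads, and the 3 most abundant loci held 53.1%. The first 10 loci held 72.0% and the first 20 held 80.9%, so 3 loci were needed for 50% of the reads, 13 for 75% and 47 for 90%. At the other end, 14 loci had 20 to 29 reads and 12 had 30 to 49, with a median of 34.5 reads per locus over all 44. Detection followed this order: 10 loci had reads in all 18 brains, and 8 had reads in 9 brains or fewer. The longest row, Hsal_tRNA435 with 123 bases, had 25 reads from 5 brains.

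**Figure D1:**
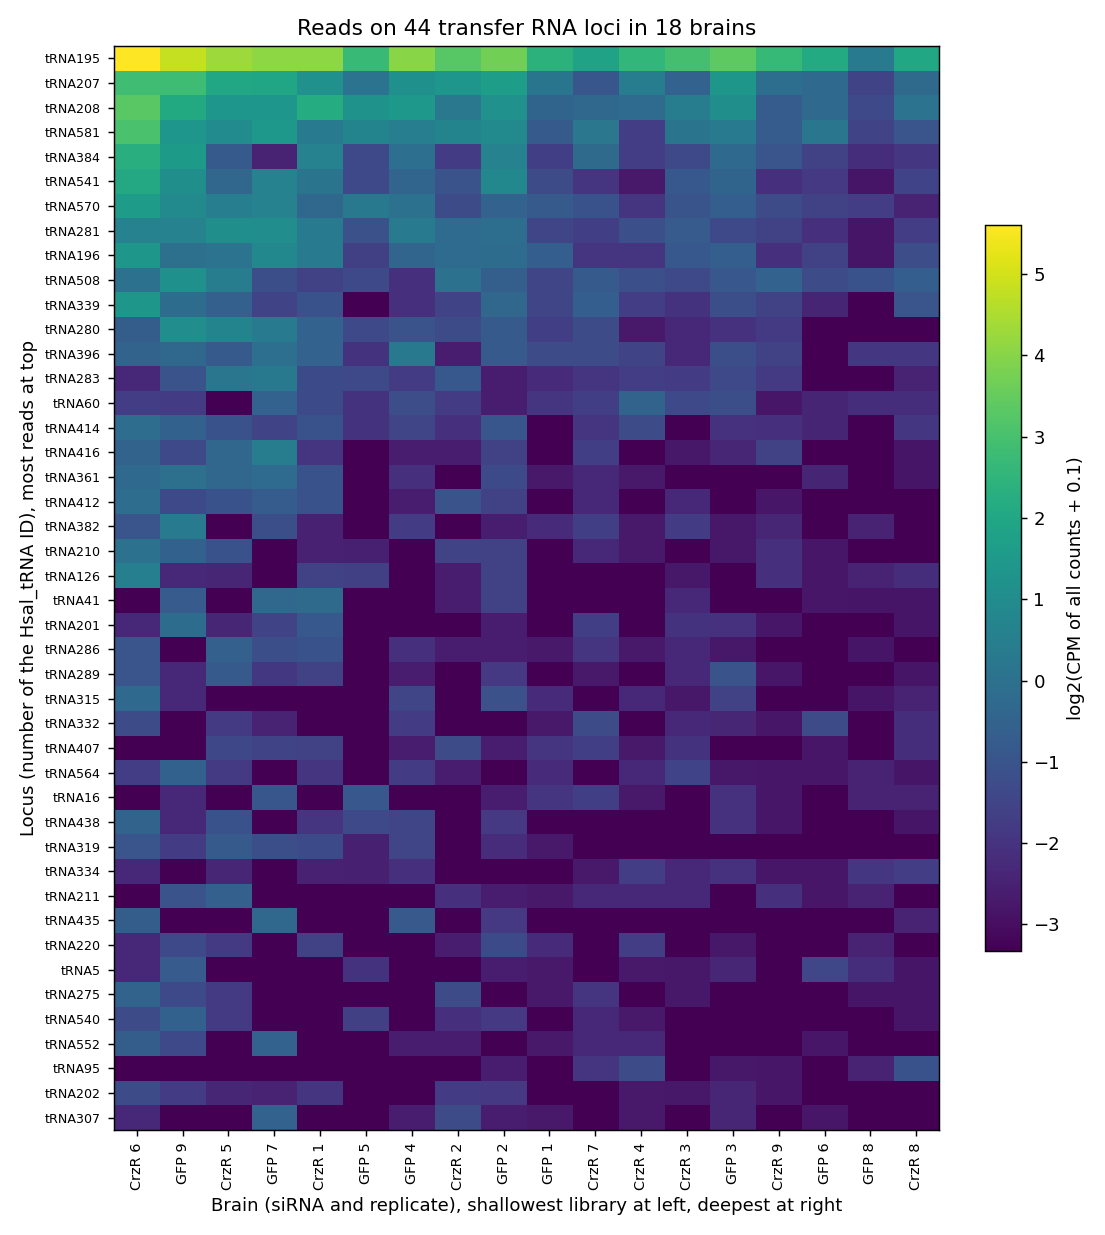
Log2(CPM + 0.1), as colour, for each of the 44 loci (rows, most reads at the top) in each of the 18 brains (columns, from the shallowest library at the left to the deepest at the right, named by siRNA and replicate). Hsal_tRNA195 was read in every brain, while 8 loci were read in 9 brains or fewer.

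Hsal_tRNA195 was the most abundant locus in CPM and per length, with a mean of 174 RPKM (reads per kilobase of row and scaled library size, recomputed from counts, length and each brain's own total). After CrzR siRNA it ran from 3.39 CPM through a median of 7.79 to 48.5, and after GFP siRNA from 1.22 through 10.3 to 27.8. The groups overlapped along most of this range. It took 22.3% to 45.9% of the transfer RNA reads of a brain, with a median of 38.8%.

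Hsal_tRNA207 and Hsal_tRNA208, with consecutive identifiers, came next with 566 and 543 reads, and their mean levels per length were 32.2 and 31.4 RPKM. Hsal_tRNA207 had a lowest, median and highest level of 0.424, 1.23 and 7.19 CPM after CrzR siRNA and of 0.253, 2.15 and 7.05 CPM after GFP siRNA. For Hsal_tRNA208 these values were 0.506, 1.09 and 9.96 CPM against 0.295, 2.17 and 4.21 CPM. The mean levels per length of this pair were closer to each other than the spread between brains of either.

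Hsal_tRNA581 had 394 reads (22.1 RPKM per length) and Hsal_tRNA384 had 208 (12.1 RPKM). Hsal_tRNA581 ran from 0.204 through 1.06 to 8.21 CPM after CrzR siRNA and from 0.253 through 1.30 to 2.64 CPM after GFP siRNA. Hsal_tRNA384 ran from 0.166 through 0.414 to 4.72 CPM and from 0.0850 through 0.295 to 2.84 CPM. In both, the CrzR siRNA and GFP siRNA ranges overlapped, and the highest CrzR siRNA brain lay far above the median of its group.

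Transfer RNA reads were unevenly divided between shallow and deep libraries. The 5 shallowest brains held 18.1% of all counts but 44.2% of transfer RNA reads, and the 5 deepest held 36.7% and 18.6%. Of the 44 loci, 42 had a larger part of their reads in the 5 shallowest brains than the 18.1% of all counts, as had 34.5% of all 12914 rows with at least 20 reads. A locus could reach 20 reads through these brains alone, so the count describes the 44 loci only. Correlations of log2 level with log2 depth had a median of -0.57 over the loci and were near 0 for some, such as Hsal_tRNA16 at -0.01 and Hsal_tRNA332 at -0.02. Hsal_tRNA361 had 72.5% of its reads there and 5.88% in the deepest 5, and Hsal_tRNA319 had 70.4% and none. The exceptions were Hsal_tRNA95, with none of its 23 reads in the 5 shallowest brains and 56.5% in the 5 deepest, and Hsal_tRNA334, with 11.1% and 51.9%. These loci, and others given below outside the fixed rule, were singled out after their values were seen.

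**Figure D2:**
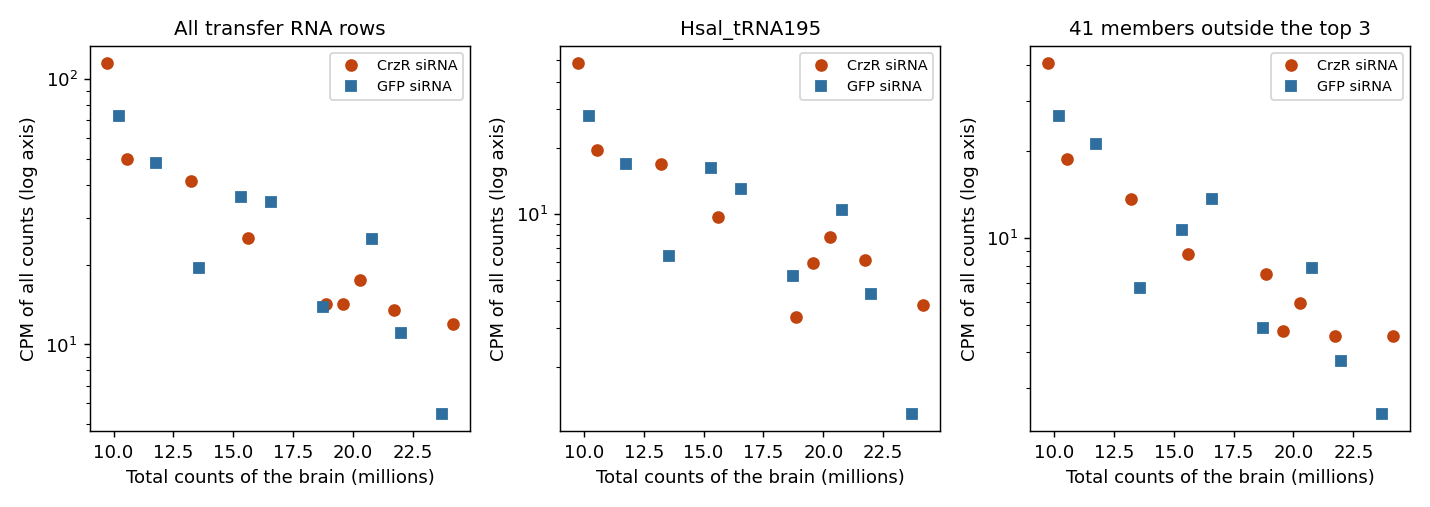
CPM of all counts (log axis) against total counts of the brain for all transfer RNA rows, for Hsal_tRNA195 and for the 41 loci outside the 3 most abundant, 1 point per brain, coloured by siRNA. The shallowest brain, of the CrzR siRNA group, stood highest in each panel, and a deep GFP siRNA brain stood lowest.

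Across brains the total transfer RNA level ran from 5.49 CPM in GFP siRNA replicate 8 to 114 CPM in CrzR siRNA replicate 6, the shallowest library. Over 18 brains the log2 level correlated with log2 depth at r = -0.91. Total counts are also the denominator of CPM, so the 2 measures share a term. What made shallow libraries richer in these reads was not tested. Small nuclear RNA rows ran from 129 to 1685 CPM and ribosomal RNA rows from 0.444% to 3.14% of counts over the same brains.

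Whether a locus followed the rest of the transfer RNA level was measured over the 18 brains. For each of the 12914 rows with at least 20 reads, log2(CPM + 0.1) was correlated with the log2 transfer RNA level, leaving out the row itself where it was a transfer RNA. Rows were called when r was above 0 with a permutation p, adjusted by Benjamini-Hochberg over all rows, under 0.05. Of the 44 loci 26 followed, where 15.5% of all rows tested did. No locus ran opposite to the total at that threshold, where 31.8% of all rows did. The median r was 0.58 over the 44 loci and -0.29 over all other rows, and r was above 0 for 41 loci. A locus could reach 20 reads through the brains rich in transfer RNA alone, so these counts describe the loci that were read often enough and not transfer RNA rows in general.

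Calls were more frequent among loci with more reads. With 100 or more reads 12 of 13 loci followed, beside 9.76% of other rows in the same range of sums, and with 50 to 99 reads 4 of 5 did, beside 4.60%. With 20 to 49 reads 10 of 26 followed, beside 2.12%. The 26 loci held 6383 reads, 90.4% of the reads on the 44 loci, with a median of 67.5 per locus against 30 for the other 18. Among other classes, 14 of 15 small nuclear RNA rows and 22 of 33 ribosomal RNA rows followed the transfer RNA level, beside 1933 of 12813 gene rows (15.1%). Of 9 micro RNA rows 1 followed and 3 ran opposite.

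**Figure D3:**
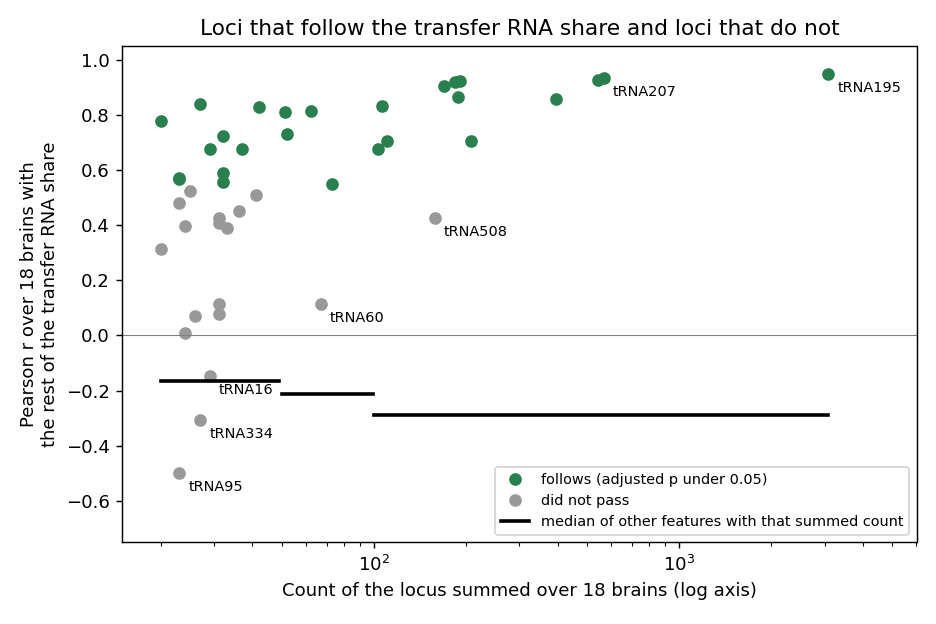
Pearson r over 18 brains between each locus and the rest of the transfer RNA level (vertical axis) against the summed reads of the locus (log axis), with loci that passed the threshold and loci that did not marked apart, and black lines at the median r of other rows in 3 ranges of summed reads. Above 200 reads all 5 loci passed, and the 3 loci below 0 had 23 to 29 reads.

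Hsal_tRNA195 had the highest correlation, with r = 0.95 and rho = 0.93 (permutation p = 1e-05 for each, the smallest that the resamples allow, adjusted p = 0.000218 for r). Without the 2 brains farthest from the median level r was 0.92, and by siRNA it was 0.93 for CrzR and 0.96 for GFP (9 brains each). Hsal_tRNA207 and Hsal_tRNA208 both had r = 0.93, with rho of 0.88 and 0.91 (adjusted permutation p = 0.000218 for r in each), and without the 2 farthest brains 0.90 and 0.87. Hsal_tRNA581 followed at r = 0.86 and Hsal_tRNA384 at r = 0.70, with rho of 0.86 and 0.56 (adjusted permutation p of 0.000218 and 0.00476 for r). Without the 2 farthest brains these fell to 0.75 and 0.53.

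Over all 44 loci, 35 had r above 0 within each siRNA group. The submitters' library reference numbers fall into a lower range with 10 brains and a higher range with 8, and 32 of the 44 had r above 0 within both. Hsal_tRNA552, which followed over all brains, had r = 0.84 in the lower range and -0.66 in the higher. The 26 loci were picked on these same brains, so their values in subsets of them are no separate test.

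With log2 depth removed from both sides, none of the 12914 rows passed, and so none of the 44 loci. At that setting r was above 0 for 38 of 44 loci and for 47.5% of all rows, with medians of 0.23 over the loci and -0.02 over the other rows. An unadjusted permutation p under 0.05 in that direction was found for 13 loci and for 3.54% of all rows. Hsal_tRNA195 kept r = 0.81 (permutation p = 3e-05, adjusted p = 0.258), and Hsal_tRNA541 had r = 0.82 (adjusted permutation p = 0.258). A level common to the loci and the depth of the library cannot be told apart by the calls above.

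Of the 18 loci that did not pass, Hsal_tRNA508 had the most reads, 158. It was read in every brain, between 0.130 CPM (GFP siRNA replicate 4) and 2.16 CPM (GFP siRNA replicate 9) with a median of 0.406. Its correlation was r = 0.42 and rho = 0.27 (permutation p = 0.0777, adjusted p = 0.132 for r). Its part of the transfer RNA reads ran from 0.364% in GFP siRNA replicate 4 (exact 95% binomial interval 0.0441% to 1.31%) to 6.92% in GFP siRNA replicate 8 (3.21% to 12.7%). In CrzR siRNA replicate 6, the brain with the highest transfer RNA level, that part was 0.809% (0.370% to 1.53%). The intervals of GFP siRNA replicate 8, with the lowest transfer RNA level, and of CrzR siRNA replicate 6, with the highest, do not meet.

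The 3 lowest correlations belonged to Hsal_tRNA95, Hsal_tRNA334 and Hsal_tRNA16. Hsal_tRNA95 had r = -0.50 and rho = -0.53 (permutation p = 0.0372, adjusted p = 0.0727 for r), and its correlation with depth was 0.56. Of its 23 reads 19 came from CrzR siRNA brains, in 4 of 9 brains, and 4 from GFP siRNA brains, in 3 of 9. Its correlation passed the threshold without GFP siRNA replicate 6 (r = -0.56, adjusted permutation p = 0.0437) and with group means removed (r = -0.54, adjusted permutation p = 0.0419), and with depth removed r was 0.02.

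Hsal_tRNA334 had r = -0.31 and rho = -0.25 (adjusted permutation p = 0.305 for r) and Hsal_tRNA16 r = -0.15 and rho = -0.19 (adjusted permutation p = 0.645 for r). Without the 2 brains farthest from the median the 3 loci had r of -0.50, -0.33 and -0.02. None of the 3 passed the threshold. Hsal_tRNA334 had 16 reads from 8 brains after CrzR siRNA and 11 from 5 after GFP siRNA, and lay between 0 and 0.207 CPM in all 18. Its reads were spread over the brains about as counting noise around a constant part of all counts would spread them (chi-square per degree of freedom 1.02).

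The spread of each locus between brains was set against counting noise. Against a constant part of all counts, 43 of 44 loci had a chi-square per degree of freedom above 1.62, the 95th percentile of counting noise, with a median of 4.95. Of all 12914 rows 96.6% were past that mark, with a median of 27.0. Of those rows 11126 had 100 or more reads, and this measure grows with reads. Among rows with 20 to 49 reads, 25 of 26 loci were past the mark, beside 73.1% of all 1065 such rows. Against a constant part of transfer RNA reads 34 of 44 loci were above 1.62, with a median of 2.29. Separate brains commonly differ beyond counting noise. For Hsal_tRNA195 the value fell from 153 to 4.91 between these 2 references. Hsal_tRNA95 had the highest value against transfer RNA reads, 8.40, followed by Hsal_tRNA195, Hsal_tRNA332 at 4.60 and Hsal_tRNA508 at 4.39. Of the 13 loci with 100 or more reads, Hsal_tRNA196 at 1.33 and Hsal_tRNA570 at 1.56 stayed within counting noise of a fixed part of the pool.

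Outside the transfer RNA rows, the feature with the pattern closest to Hsal_tRNA195 over the 18 brains was Hsal_snRNA22, a small nuclear RNA row, at r = 0.95, followed by the gene row Hsal_01656 at r = 0.93. Both also came first for Hsal_tRNA207, at r = 0.92 and 0.91. Hsal_snRNA22 ran from 0.886 to 21.4 CPM and Hsal_01656 from 30.5 to 57.6 CPM. All of these series share the depth of the libraries, and these values describe likeness only.

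Loci with consecutive identifiers were compared with the other pairs. Whether neighbouring numbers mean neighbouring places in the genome was not analysed here. Over 18 brains the 6 consecutive pairs had r between 0.46 and 0.90 with a median of 0.67, the 12 pairs with a gap of 2 or 3 had a median of 0.60, and the 928 other pairs a median of 0.35. Among pairs with at least 50 reads on each locus, the 3 consecutive ones had 0.85 to 0.90. The 3 with a gap of 2 or 3 had 0.63 to 0.74, and the 147 others a median of 0.64 and a highest of 0.94. The 3 consecutive pairs include the 3 most abundant loci, and the sets of pairs were not matched on reads. With depth removed the 6 consecutive pairs had r from -0.04 to 0.71 with a median of 0.42, and the 928 other pairs a median of 0.10. With at least 50 reads on each locus and depth removed, the 3 consecutive pairs had a median of 0.49. The 3 with a gap of 2 or 3 had a median of 0.45, and the 147 others one of 0.23 with a highest of 0.80. The 17 rows from Hsal_tRNA195 to Hsal_tRNA211 held 8 of the 44 loci and 4478 reads, 56.7% of all transfer RNA reads. This range was set around the 3 most abundant loci, which alone held 53.1%. Those from Hsal_tRNA280 to Hsal_tRNA289 held 5 loci and 427 reads, or 5.40%.

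The division of reads within the 3 most correlated pairs was also followed over the brains. Hsal_tRNA195 and Hsal_tRNA196 moved together at r = 0.90, and Hsal_tRNA195 held 94.8% of the reads of the pair, from 90.7% in GFP siRNA replicate 1 to 97.8% in CrzR siRNA replicate 9. That spread was within counting noise at the 95th percentile (chi-square per degree of freedom 1.38). Hsal_tRNA196 itself ran from 0.138 through 0.444 to 2.57 CPM after CrzR siRNA and from 0.0422 through 0.534 to 1.70 CPM after GFP siRNA.

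Hsal_tRNA280 and Hsal_tRNA281 had r = 0.88, and Hsal_tRNA280 held 36.6% of their reads, from 0% to 60% by brain. That spread was again within counting noise (1.29). With only 1 to 38 reads on the pair per brain, a varying division could go unseen. Hsal_tRNA280 lay at 0, 0.318 and 1.51 CPM (lowest, median, highest) after CrzR siRNA and at 0, 0.295 and 1.96 CPM after GFP siRNA. Hsal_tRNA281 lay at 0.207, 0.4932 and 2.08 CPM and at 0.0422, 0.368 and 1.96 CPM. Both loci overlapped between the siRNA groups.

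Hsal_tRNA207 and Hsal_tRNA208 held nearly equal numbers of reads, with 51.0% on Hsal_tRNA207, and r was 0.85. Their division varied beyond counting noise, with a chi-square per degree of freedom of 3.53. Hsal_tRNA207 held 29.5% of the pair in GFP siRNA replicate 5 (exact 95% binomial interval 16.8% to 45.2%) and 69.6% in CrzR siRNA replicate 2 (55.9% to 81.2%), intervals that do not meet. How reads common to near-identical copies were divided can bear on such a ratio and was not tested.

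**Figure D4:**
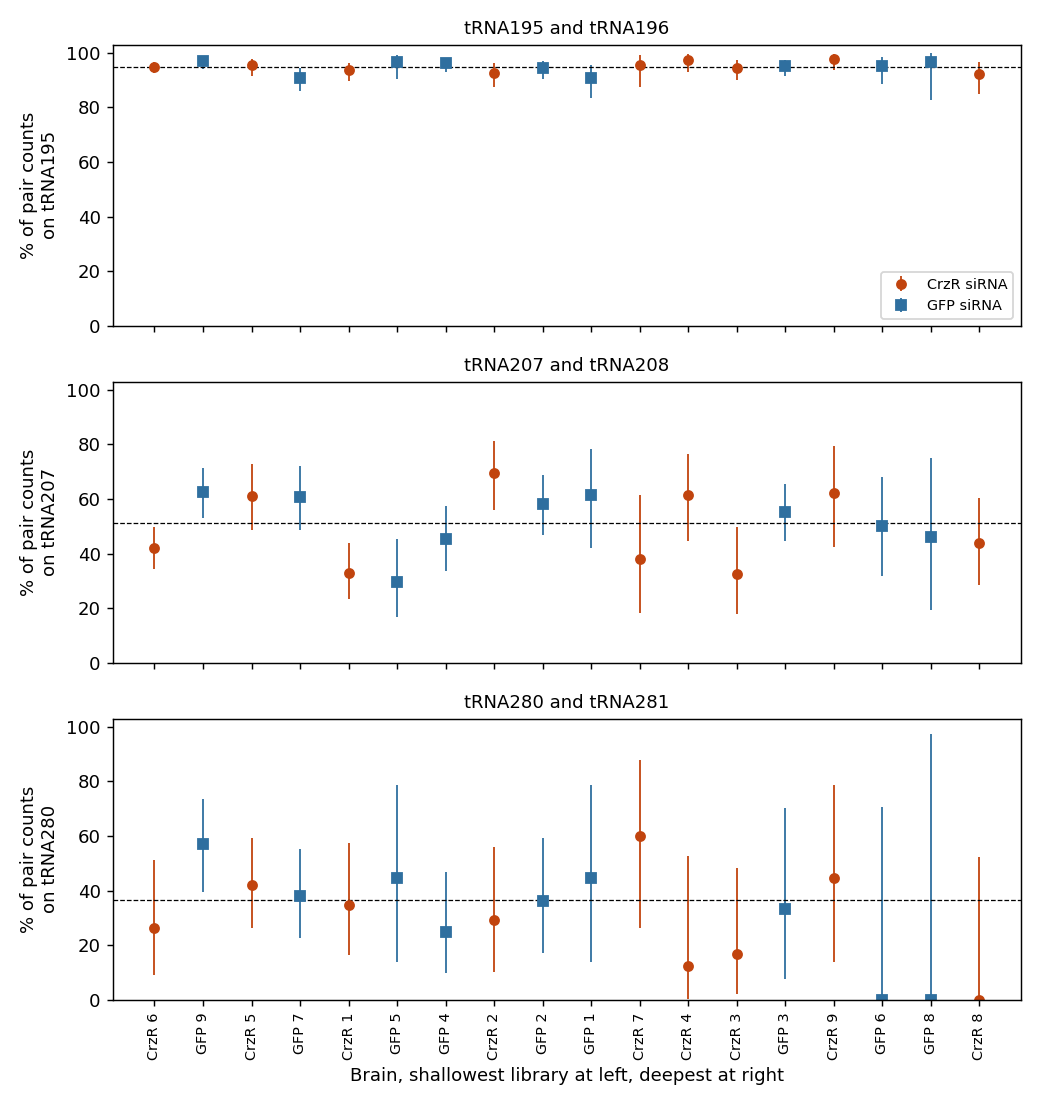
Percent of the reads of each consecutive pair that fell on its first locus, 1 point per brain from the shallowest library to the deepest, coloured by siRNA, with exact 95% binomial intervals as bars and the value over all brains as a dashed line. For Hsal_tRNA195 with Hsal_tRNA196 the points stayed between 90.7% and 97.8%, and for Hsal_tRNA207 with Hsal_tRNA208 they ran from 29.5% to 69.6%. For Hsal_tRNA280 with Hsal_tRNA281 they ran from 0% to 60%, on 1 to 38 reads per brain.

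CrzR siRNA and GFP siRNA brains were compared at every locus. None of the 44 loci passed edgeR's quasi-likelihood test at an adjusted p under 0.05, and of all 12914 rows tested 0% did. At an unadjusted edgeR p under 0.05 there was 1 locus, Hsal_tRNA5, lower after CrzR siRNA, where 7.54% of all rows were past that level, 4.7% higher and 2.84% lower. DESeq2 called 4 of the 12914 rows (0.031%) and none of the 44 loci, with 1 locus at an unadjusted p under 0.05. At no locus did the CPM ranges of the groups fail to overlap, where 0.00774% of all rows did.

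The fitted changes were split evenly, with 22 loci higher and 22 lower and a median log2 fold change of -0.03, where the median over all rows was 0.0041. Scaled by library size alone, 27 loci were higher and 17 lower, with medians of 0.09 over the loci and 0.11 over all rows. Single brains moved this split. Without CrzR siRNA replicate 6, the shallowest library, 11 of 40 loci tested were higher and 29 lower (median -0.47), and without GFP siRNA replicate 9, the next shallowest, 31 of 41 were higher and 10 lower (median 0.19).

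The abundant loci had fold changes near 0 with wide errors. For Hsal_tRNA195 the means were 13.5 ± 14.2 CPM after CrzR siRNA and 11.2 ± 8.23 CPM after GFP siRNA (SD, n = 9 each). Its log2 fold change was 0.13 (SE 0.58, 95% interval -1.08 to 1.33, edgeR adjusted p = 0.936). Hsal_tRNA207 had -0.30 (SE 0.63), Hsal_tRNA208 0.22 (SE 0.61), Hsal_tRNA581 0.21 (SE 0.62) and Hsal_tRNA384 0.21 (SE 0.77), with edgeR adjusted p between 0.849 and 0.917. These values were smaller than their standard errors, and all 5 loci changed sign without at least 1 of the brains.

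The 3 smallest p-values on each side belonged to loci with few reads, so each rests on a handful of brains. Hsal_tRNA5 had 4 reads in 4 of 9 CrzR siRNA brains (0, 0 and 0.103 CPM as lowest, median and highest) and 20 reads in 7 of 9 GFP siRNA brains (0, 0.0962 and 0.490 CPM). Most CrzR siRNA brains had no read on it, yet the ranges overlapped. Its log2 fold change was -2.19 (SE 0.78, edgeR p = 0.0105, adjusted p = 0.599). Over the other settings in which it was tested the adjusted p lay between 0.0865 and 0.921.

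Hsal_tRNA16 had 8 reads from 4 brains after CrzR siRNA and 21 from 7 after GFP siRNA, with medians of 0 and 0.0980 CPM and highest values of 0.212 and 0.442 CPM. Its log2 fold change was -1.60 (SE 0.81, edgeR adjusted p = 0.599). Hsal_tRNA435 had 7 reads from 2 brains after CrzR siRNA and 18 from 3 after GFP siRNA, with medians of 0 in both groups and highest values of 0.513 and 0.680 CPM. The log2 fold change of Hsal_tRNA435 was -1.43 (SE 1.19, edgeR adjusted p = 0.629). For both loci the groups overlapped and the change did not pass.

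On the higher side, Hsal_tRNA95 had medians of 0 in both groups and highest values of 0.372 CPM after CrzR siRNA and 0.0844 CPM after GFP siRNA. Its log2 fold change was 1.76 (SE 0.89, edgeR adjusted p = 0.599). All 3 GFP siRNA brains with reads on it had 1 or 2 reads. Hsal_tRNA275 had 18 reads from 6 brains after CrzR siRNA and 5 from 3 after GFP siRNA, with medians of 0.0493 and 0 CPM and highest values of 0.616 and 0.294 CPM. For Hsal_tRNA275 the log2 fold change was 1.69 (SE 1.01, edgeR adjusted p = 0.599).

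Hsal_tRNA126 had 25 reads from 7 brains after CrzR siRNA and 11 from 5 after GFP siRNA, with medians of 0.0947 and 0.0455 CPM and highest values of 1.33 and 0.241 CPM. For Hsal_tRNA126 the log2 fold change was 1.32 (SE 0.93, edgeR adjusted p = 0.611), and without CrzR siRNA replicate 6, which held the 1.33 CPM, it was 0.07. The ranges of the groups overlapped for Hsal_tRNA95, Hsal_tRNA275 and Hsal_tRNA126.

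**Figure D5:**
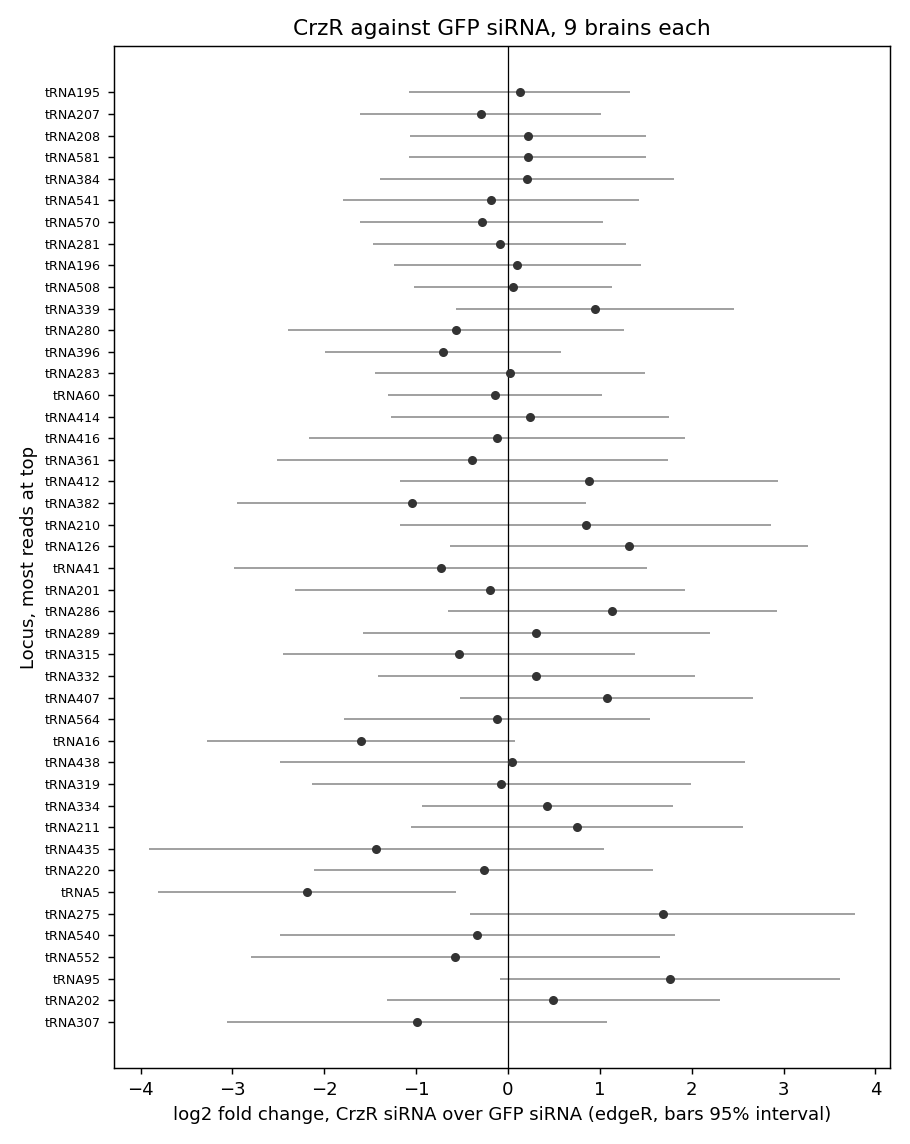
Log2 fold change of CrzR siRNA over GFP siRNA for the 44 loci (edgeR, 9 brains each), ordered by summed reads, with 95% intervals as bars. The intervals of 43 loci include 0 and that of Hsal_tRNA5 does not, before adjustment over all rows.

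The precision was low for these rows. Standard errors of the log2 fold changes had a median of 0.86 over the 44 loci and 0.64 over those with 100 or more reads, against 0.26 over all rows. At no locus did the 95% interval lie within a change of 2-fold in either direction, so a 2-fold change in at least 1 direction is inside the interval of every locus.

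Differences in values summed over loci were also within the spread between brains. The total transfer RNA level was 12.0, 17.5 and 114 CPM (lowest, median, highest) after CrzR siRNA and 5.49, 24.9 and 72.6 CPM after GFP siRNA. The log2 difference was 0.10 (two-sided exact permutation test, p = 0.846). It was -0.03 within the lower range of reference numbers (4 against 6 brains, exact permutation p = 0.971) and 0.22 within the higher (5 against 3, exact permutation p = 0.661). It was also below 0 without CrzR siRNA replicate 5 (-0.02) or 6 (-0.17), or without GFP siRNA replicate 6 (-0.03) or 8 (-0.15).

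Outside the 3 most abundant loci, the other 41 together reached 4.55, 7.47 and 40.4 CPM after CrzR siRNA and 2.45, 7.89 and 26.5 CPM after GFP siRNA. The log2 difference was 0.12 (exact permutation p = 0.827), with 0.07 (exact permutation p = 0.948) and 0.18 (exact permutation p = 0.732) within the lower and the higher range of reference numbers. It turned below 0 without the same 4 brains, at -0.02, -0.15, -0.03 and -0.11. For both sums the groups overlapped, with CrzR siRNA replicate 6 above every GFP siRNA brain and GFP siRNA replicates 6 and 8 below every CrzR siRNA brain.

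Hsal_tRNA195 took 38.8% ± 6.86 of the transfer RNA reads after CrzR siRNA and 36.6% ± 6.41 after GFP siRNA (SD, n = 9 each), a difference of 2.20 percentage points (exact permutation p = 0.4928). Leaving out GFP siRNA replicate 8 brought it to 0.414 points and leaving out CrzR siRNA replicate 7 to 4.06. With all brains thinned to the depth of the shallowest, 29.7 ± 4.69 of the 44 loci were read per CrzR siRNA brain and 26.4 ± 6.56 per GFP siRNA brain (SD, n = 9 each). Thinning equalised all counts and not transfer RNA reads, which still ran from 58 to 1113 per brain. The difference of 3.22 loci was within the spread between brains (exact permutation p = 0.264). Without thinning the numbers were 33.2 ± 2.39 and 30.7 ± 5.50 loci.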

How the data were processed

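Whole-number counts per row, 1 column per brain, were used as the authors deposited them, with the 2 sequencing runs of a brain already added. The deposited RPKM columns were used only to recover row lengths, because their divisor was not each brain's own total. STAR 2.5.0b and DESeq2 are named in the submitters' processing notes. What counted the reads, how multiply matching reads were handled and which genome build was used is not given in the sources used here. No column belonged to an unknown sample (0 unmapped). No row identifier matched the reference gene table (0 matches), so genes of the transfer RNA pathway and brain markers were not analysed here.

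Rows with a summed count of at least 20 were tested (12914) with edgeR 4.0.16 in R 4.3.3 (quasi-likelihood F test, TMM scaling, siRNA as the only term, two-sided, Benjamini-Hochberg over all rows). DESeq2 1.42.0 was an alternative. A single value per brain was tested by exact permutation (two-sided, every assignment), and a correlation by permutation with 100000 resamples (Python 3.11.15, scipy 1.17.1), with a pseudocount of 0.1 CPM. The edgeR and correlation steps were tested on simulated data. The members and lists were chosen with earlier results of these data known. Named loci were the 5 with the most reads, the 3 highest and 3 lowest correlations with the rest of the transfer RNA level, the 3 smallest edgeR p on each side and the 3 best-correlated consecutive pairs with at least 50 reads on each locus. For the 2 most abundant loci the 2 most alike rows of other classes were named. Other settings were another tool, scaling, filters, pseudocounts, rank correlation, thinning, covariates for depth, transfer RNA level or reference number range, replicate blocks and leaving out each brain.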

Additional observations from a re-analysis of the deposited data

Results flagged for a closer look

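In groups of 9 brains, 3 of the 38 combinations examined held a brain that stood apart from the others of its group. A combination was a siRNA group with a named locus or with a summary value per brain. All 3 were loci, on the log2 scale. Chance gives about 1 in 20 such groups where values are normally distributed, and loci with several brains at 0 reads are not. In the GFP siRNA group, Hsal_tRNA275 was at 0.294 CPM in replicate 9, where the other 8 brains lay between 0 and 0.0534 CPM. That value is 3 reads, which is the floor of that brain. In the CrzR siRNA group, replicate 6 was at 1.33 CPM for Hsal_tRNA126, where the others lay between 0 and 0.227 CPM. The same brain was at 0.513 CPM for Hsal_tRNA435, where the others lay between 0 and 0.0828 CPM. The whole CrzR siRNA group had 7 reads on Hsal_tRNA435, from 2 brains. CrzR siRNA replicate 6 and GFP siRNA replicate 9 were the 2 shallowest libraries and had the highest transfer RNA levels of their groups; the part of depth in these values was not tested.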

How the results depend on the processing

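No locus passed edgeR or DESeq2 under any setting tried. Over all rows, 4 passed with DESeq2, 6 with the transfer RNA level as a covariate and 0 to 2 with a brain left out (1 without CrzR siRNA replicate 5, 2 without GFP siRNA replicate 8). The replicate number as a block left 0 rows and 0 loci called. Most same-numbered brains did not deviate together (r from -0.51 to 0.71, above 0.1 in 3 of 9 pairs), so the numbers are not taken as pairs. The 2 brains numbered 8 did, at r = 0.71, and each was the closest brain of the other group to its partner. They were also the 2 deepest libraries, and the part of depth in this likeness was not tested. Which nest each brain came from is not in the labels, so a nest common to brains of both groups was not modelled. At an unadjusted edgeR p under 0.05 the block gave 868 rows higher and 458 lower, against 607 and 367 without it. In the block the total transfer RNA level had exact p = 0.867. The number of loci that followed the total was 23 to 28 over pseudocounts, rank correlation, thinning, removed group means and left-out brains (23 to 27 for the last), and 0 with depth removed, where r of Hsal_tRNA95 was 0.025 and of Hsal_tRNA334 0.040. The log2 difference in total level was -0.026 within the lower range of reference numbers and ran from -0.17 to 0.31 with a brain left out. For the loci outside the first 3 it ran from -0.15 to 0.32.

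Over all settings 25 of the 44 loci turned sign at least once, 9 of 40 without CrzR siRNA replicate 6 and 10 of 41 without GFP siRNA replicate 9. Among the loci named for their summed reads or their p-values, those that turned sign were the abundant ones. Hsal_tRNA334, Hsal_tRNA280, Hsal_tRNA196 and Hsal_tRNA281 were named for other reasons. Their fold changes were not followed one by one over the settings, so whether they turned sign is not given here. Hsal_tRNA195 was at -0.11 with blocks of 3 replicate numbers, -0.062 with depth and -0.044 with the transfer RNA level as covariates. Hsal_tRNA208 was at -0.24 with the replicate block, -0.047 with blocks of 3, -0.12 with depth and -0.21 with the transfer RNA level. Hsal_tRNA581 was at -0.29, -0.062, -0.19 and -0.29 in the same order. Hsal_tRNA384 was at -0.055 with the replicate block, -0.12 with depth and -0.061 with the transfer RNA level. With a brain left out Hsal_tRNA195 ran from -0.50 to 0.47, Hsal_tRNA207 from -0.84 to 0.16, Hsal_tRNA208 from -0.55 to 0.47, Hsal_tRNA581 from -0.72 to 0.39 and Hsal_tRNA384 from -0.81 to 0.85. The cause was not tested. The 6 loci named for their p-values kept their direction under every setting in which they were tested. Hsal_tRNA16 and Hsal_tRNA126 were tested in all 18 fits with a brain left out. Hsal_tRNA95, Hsal_tRNA275, Hsal_tRNA5 and Hsal_tRNA435 were tested in only 16 of them. Their sums were 23 to 25 reads, close to the minimum of 20. Leaving out 1 of the brains with the most reads on them took the sum below that minimum, and they were not fitted. Their direction without those brains was therefore not tested. Spread between brains limits even Hsal_tRNA195, with 3084 reads and a standard error of 0.58.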
